A study of Mus musculus with 6 samples.

Results

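The clock protein kinases casein kinase 1 (CK1), casein kinase 2 (CK2) and glycogen synthase kinase 3 (GSK3) were measured as mRNA in the hypothalamus of obese mice. They were taken as 8 genes, namely Csnk1a1, Csnk1d and Csnk1e for CK1, Csnk2a1, Csnk2a2 and Csnk2b for CK2, and Gsk3a and Gsk3b for GSK3. Every probe of the array whose gene name equals one of these symbols was used. This gave 26 probes for 8 of the 37074 gene names on the array. Hypothalamic RNA of male C57BL/6J DIO mice, made obese by a diet with 60 kcal% fat for 16 weeks, was hybridized to 6 Agilent arrays in 1 colour, with 1 mouse on each array. The mice of 3 arrays had received GSK-J4 at 30 mg kg−1, and those of the other 3 had received vehicle, at 0 mg kg−1 of GSK-J4. GSK-J4 blocks the Kdm6 demethylases, which take the repressive H3k27me3 mark off histone H3, and the labels name no altered allele in either group. Mice were sampled 6 h after lights on (ZT 6 h), and GEO's design text places the arrays on day 4, whereas the paper describes a longer course of daily treatment without saying when the array tissue was taken, so the length of treatment behind the differences is not settled.

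CK1, CK2 and GSK3 add phosphate groups to the proteins of the circadian clock, and these marks set how long the proteins last and when they enter the nucleus. CK1 delta and epsilon act on the PER proteins, whose marked forms are recognised by the F-box protein beta-TrCP and broken down, and a mutation in the epsilon gene gives the tau hamster its short day. CK2 is built of catalytic alpha or alpha prime subunits and a regulatory beta subunit, and it marks BMAL1 and PER2. GSK3, which lithium inhibits, marks REV-ERB alpha and CRY2, and with CK1 alpha it also marks beta-catenin for breakdown. Their work in the clock is done by the enzymes, whereas the arrays read mRNA, and neither protein level nor kinase activity was measured here.

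Of the 26 probes, 5 are printed, because each reads a place in its mRNA upstream of another probe of the same gene and they show what the array measured for these kinases. Coordinates are those of the array files on mm9, and all sequences are given 5′ to 3′ in the sense of the mRNA. The probes A_66_P108452, A_55_P2742555 and A_51_P514412 span more of the genome than their 60 bases, and therefore read across a splice junction.
Csnk1d A_66_P108452, chr11:120834472-120835157, minus strand: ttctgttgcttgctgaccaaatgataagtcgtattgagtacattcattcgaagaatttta
Csnk1d A_52_P477369, chr11:120830435-120830494, minus strand: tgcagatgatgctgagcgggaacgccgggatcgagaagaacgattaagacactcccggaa
Csnk1e A_55_P2122555, chr15:79255355-79255414, minus strand: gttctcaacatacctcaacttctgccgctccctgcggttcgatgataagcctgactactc
Csnk2a2 A_55_P2742555, chr8:97979862-97981302, minus strand: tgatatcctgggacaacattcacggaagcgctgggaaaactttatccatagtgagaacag
Gsk3b A_51_P514412, chr16:38187987-38191632, plus strand: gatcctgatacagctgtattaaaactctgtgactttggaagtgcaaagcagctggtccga
The RefSeq table used here is of another build than mm9, so exons and untranslated regions were not assigned to the probes.

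The arrays themselves differed between the groups. The vehicle arrays share slide 1 and scan 1 and the GSK-J4 arrays share slide 2 and scan 2, so for every difference given here slide, scan and treatment cannot be told apart. Between 62.8% and 63.6% of the probes were well above background on the vehicle arrays, against 57.7% to 58.7% on the GSK-J4 arrays. Before normalization, the 75th percentile of the spot signals was 787 to 916 on the vehicle arrays and 406 to 461 on the GSK-J4 arrays. Of 12 hypothalamic markers, 7 had a probe kept for the test, and Avp, Pmch, Trh, Six6 and Nkx2-1 did not. Of all 47 markers of hypothalamic and other cells and regions with a kept probe, 2 were called higher, Npy and Pomc, and 1 lower, Neurod6, a marker of neighbouring regions (-0.47, limma adjusted p = 0.032). Neurod6 read 12.39 in the mean with vehicle and 11.93 with GSK-J4, and Ppp1r1b, also of neighbouring regions, 12.43 and 12.44. Npy, the brightest kept hypothalamic marker, read 11.52 and 11.94. Prkcd, Drd1 and Adora2a, the other markers of neighbouring regions, read 9.93, 8.23 and 4.88 with vehicle and 9.52, 8.95 and 5.28 with GSK-J4. Drd1 and Adora2a were thus higher, by 0.72 (limma adjusted p = 0.063) and 0.40 (limma adjusted p = 0.067), and Prkcd was lower, by 0.41, all uncalled. How much tissue of those regions the samples held was not measured. Choroid plexus markers had a mean log2 signal of 13.30 on vehicle array 1, against 8.42 to 9.70 on the other arrays. Values without that array are given beside some of the kinase probes whose difference it moved, not beside all of them. In such bulk RNA, fewer cells of a type and less RNA per cell cannot be told apart.

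The kinase mRNAs differed little between GSK-J4 and vehicle, and the single probe that passed the test was 1 of 6 probes of Csnk1a1. Probes that passed the scanner's background test on each of the 3 arrays of either group were kept, which left 25 of the 26 kinase probes and 34444 probes of the whole array. Differences are GSK-J4 minus vehicle in normalized log2 signal, each with its 95% interval from limma, and a call is a Benjamini-Hochberg adjusted p of at most 0.05 over all kept probes. Of the 25 kept kinase probes, 0 were called higher and 1 was called lower, where 8.39% of all kept probes were called higher and 8.42% lower. At an unadjusted p of at most 0.05 in limma, 2 kinase probes were higher and 2 were lower, against 19.5% and 17% of all kept probes.

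The differences were small, and their intervals were about as wide as elsewhere on the array. The median size of the difference was 0.12 over the 25 kinase probes and 0.25 over all kept probes, whereas the median half-width of the interval was 0.28 and 0.31. For 21 of the 25 probes, or 84.0%, the whole interval lay within a 1.5-fold change in either direction, which held for 49.3% of all kept probes. The exceptions were Csnk1a1 A_55_P2716551 and A_51_P453856, Csnk2a1 A_55_P2022840 and Gsk3b A_65_P12518. With the thresholds named in the methods, a 1.5-fold change and an unadjusted p of at most 0.05, 0 kinase probes were higher and 1 was lower, against 4.79% and 7.86% of all kept probes, with p from limma. Under the unequal-variance test that the paper's statistics section names, 0 kinase probes passed these thresholds.

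**Figure D1:**
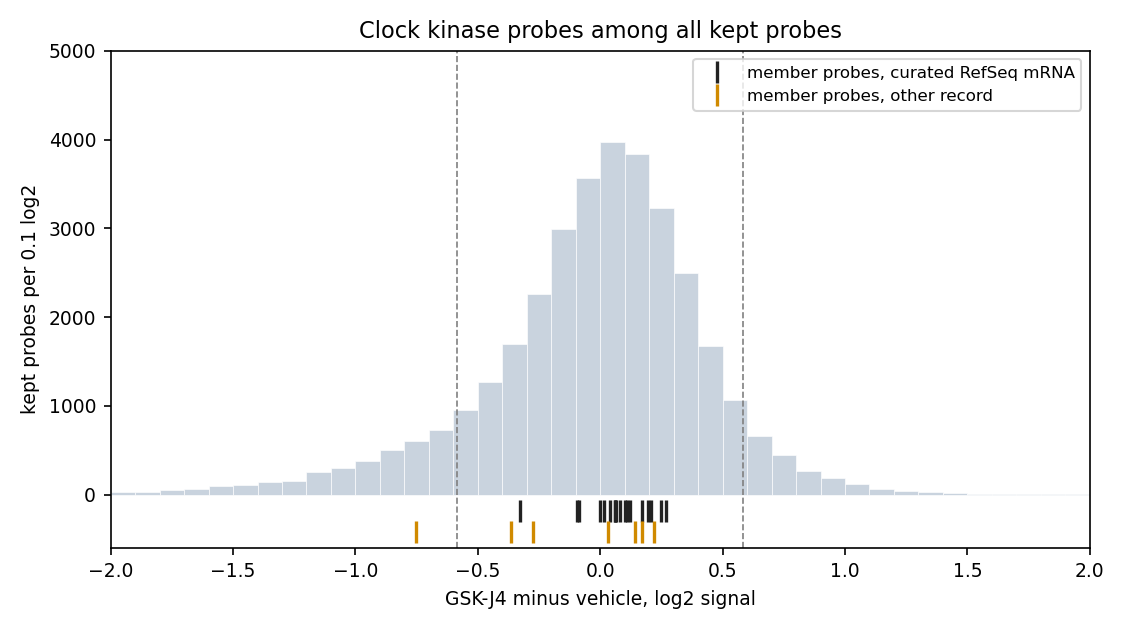
Histogram of the log2 difference (GSK-J4 minus vehicle) of all 34444 kept probes in steps of 0.1, with the 25 kept kinase probes as ticks below it, black for a curated RefSeq mRNA and orange for another transcript record; dashed lines mark 1.5-fold, and 146 probes with a difference beyond 2 are not drawn. The black ticks lie between -0.33 and 0.27, and 1 orange tick lies beyond the 1.5-fold line at -0.75.

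Differences above 0 were found at 18 of the 25 probes and below 0 at 7, with a median of 0.06 beside 0.02 over all kept probes, and 10 of these probes changed sign in at least 1 alternative fit. These counts include Csnk2a1 A_55_P2721124, which was not well above background with GSK-J4 and whose direction cannot be read. The arrays of the groups did not overlap at 9 kinase probes, of which 6 were higher and 3 lower with GSK-J4. Over all kept probes, 24.5% were higher without overlap and 21.2% were lower, so 6 of 25 is close to the share of the array as a whole and 3 of 25 is below it.

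The probes were designed on records of different kinds. Of the 25 kept probes, 18 match a curated RefSeq mRNA by accession, and 7 match only an Ensembl transcript or a predicted RefSeq model. The 18 curated probes differed by -0.33 to 0.27, with 14 above 0, 4 below 0 and 0 called, although 2 of them had an unadjusted p of at most 0.05 in limma. The single call was among the other 7, and the remaining 6 of those differed by -0.36 to 0.22. Over the whole array, 8.84% of the 21923 kept probes with a curated accession were called higher and 4.32% lower, against 7.60% and 15.6% of the 12521 probes without one, and 1 of 7 is close to that share.

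**Figure D2:**
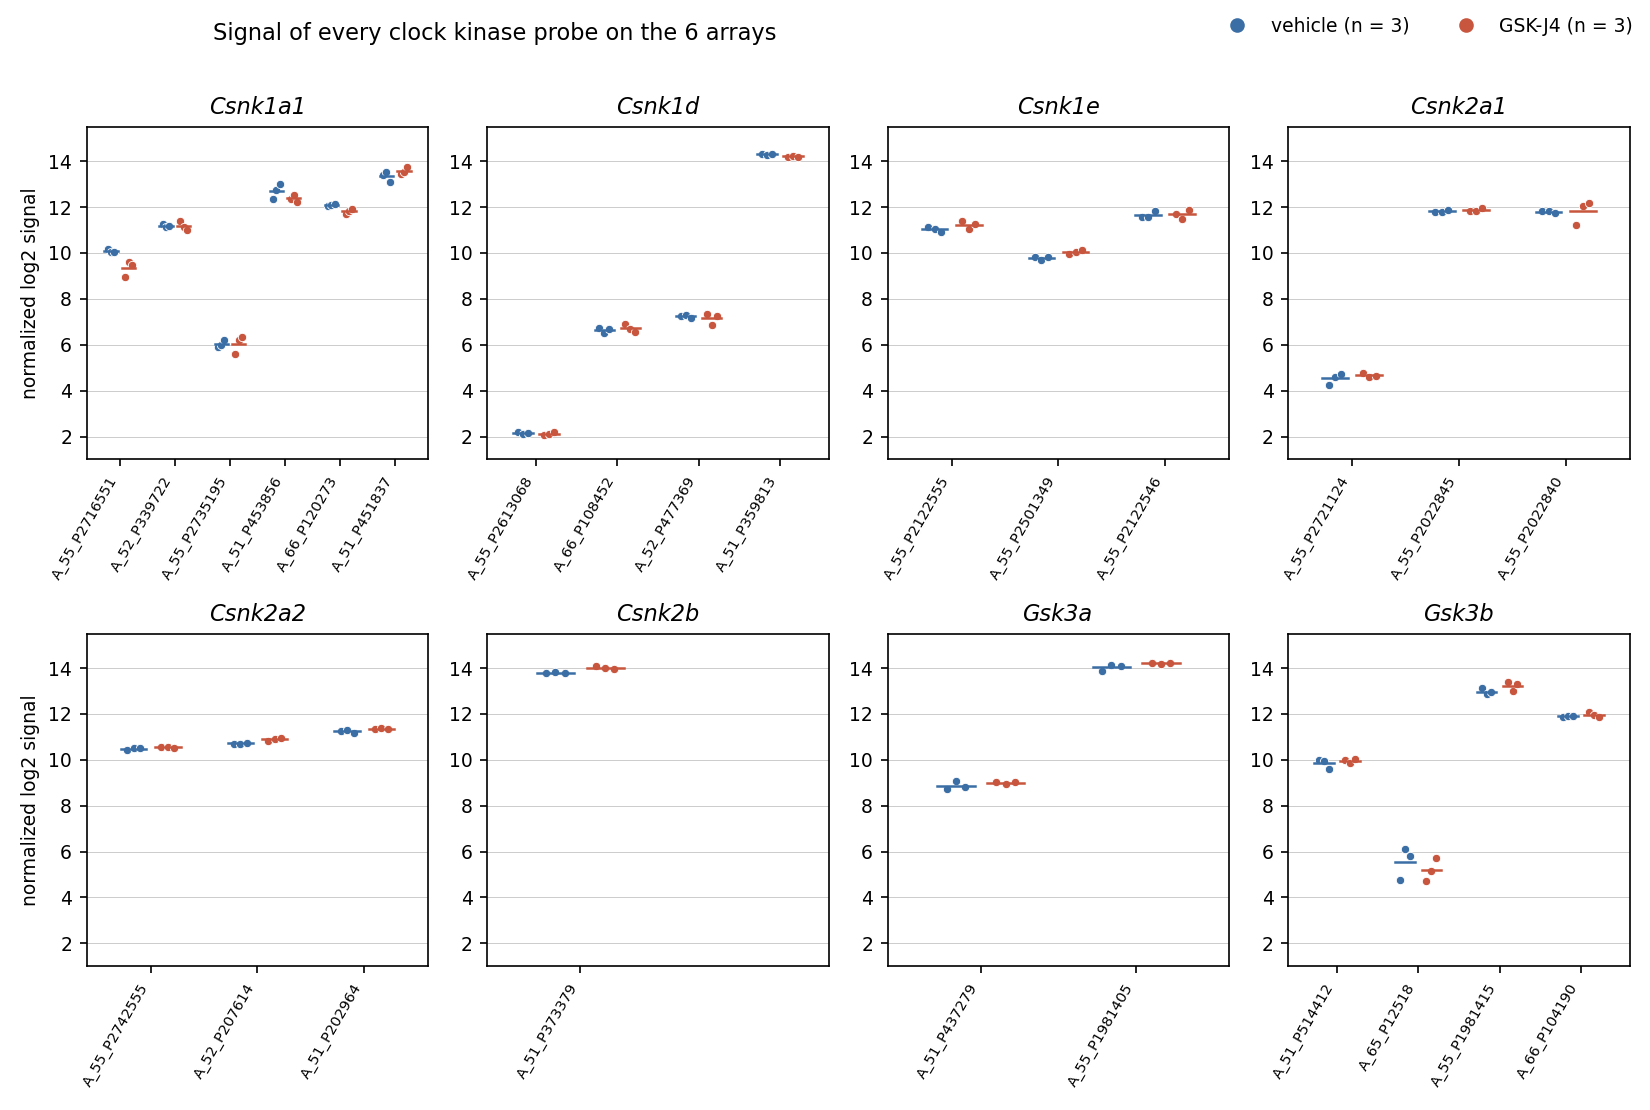
Normalized log2 signal (vertical axis) of all 26 probes of the 8 kinase genes on the 3 vehicle arrays (blue) and the 3 GSK-J4 arrays (red), 1 point an array, with a bar at each group mean; probes run from 5′ to 3′ along each gene. The groups lie close together at most probes and are clearly separate at Csnk1a1 A_55_P2716551, where the GSK-J4 arrays reach at most 9.59 and the vehicle arrays at least 10.03.

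Csnk1a1 encodes CK1 alpha, which marks PER proteins and primes beta-catenin for GSK3. Its 6 probes lie along chromosome 18 over 32121 bases. The most 5′ of them, A_55_P2716551, was designed on ENSMUST00000165381, a transcript with no curated RefSeq accession in the files. It read 10.18, 10.03 and 10.04 on vehicle arrays 1, 2 and 3 and 8.94, 9.59 and 9.46 on GSK-J4 arrays 1, 2 and 3. Every GSK-J4 array was below every vehicle array, and GSK-J4 array 1 was the lowest. The signal of this probe was 1.68-fold lower with GSK-J4, a log2 difference of -0.75 (95% interval -1.20 to -0.31, limma adjusted p = 0.043, n = 3 per group). The exact permutation p was 0.1, two-sided, which is the smallest that 3 arrays against 3 allow.

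The call at this probe was lost without any 1 of the 3 vehicle arrays or without GSK-J4 array 3. Leaving out vehicle array 1, the one with the choroid plexus signal, gave -0.70 with a limma adjusted p of 0.117. Without vehicle array 2 the difference was -0.78 (adjusted p = 0.117), without vehicle array 3 it was -0.77 (adjusted p = 0.115), and without GSK-J4 array 3 it was -0.82 (adjusted p = 0.064), all by limma. Leaving out a vehicle array left 5 to 13 calls over the whole array, which carries 5788 with all 6. The probe has 35% G and C, and of the 7292 kept probes with that content 15.3% were called lower and 1.69% higher. With the dependence on G and C content removed within each array, its difference was -0.55 (limma adjusted p = 0.096).

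The other 5 Csnk1a1 probes were not called. A_52_P339722, on the curated mRNA and 18392 bases further along the gene, read 11.28, 11.12 and 11.17 on the vehicle arrays and 11.40, 11.14 and 11.02 on the GSK-J4 arrays. The group ranges of A_52_P339722 overlapped, and the interval of its difference ran from -0.29 to 0.29. A_51_P453856, the second curated probe at 30040 bases, read 12.35, 12.73 and 13.03 with vehicle and 12.34, 12.55 and 12.24 with GSK-J4, a difference of -0.33 (95% interval -0.79 to 0.14, limma adjusted p = 0.26). Vehicle array 1 lay within the GSK-J4 range there, and without it the difference was -0.50 (limma adjusted p = 0.109).

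Toward the 3′ end the probes went in both directions. A_66_P120273, on an Ensembl transcript at 30823 bases, read 12.05, 12.11 and 12.13 with vehicle and 11.70, 11.84 and 11.91 with GSK-J4. Its groups did not overlap, and the difference of -0.28 (95% interval -0.48 to -0.07) had a limma adjusted p of 0.071. Over 17 alternatives it lay between -0.32 and -0.12, with adjusted p-values of 0.044 to 0.343 and a call in 2, and the smallest size came with scaling to the 75th percentile. A_51_P451837, on a predicted model at 32121 bases, read 13.39, 13.55 and 13.10 with vehicle and 13.43, 13.51 and 13.75 with GSK-J4, a difference of 0.22 (limma adjusted p = 0.33). The remaining probe, A_55_P2735195, gave 0.03 (95% interval -0.49 to 0.55), with GSK-J4 array 1 at 5.61 and the other arrays of both groups between 5.89 and 6.34.

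**Figure D3:**
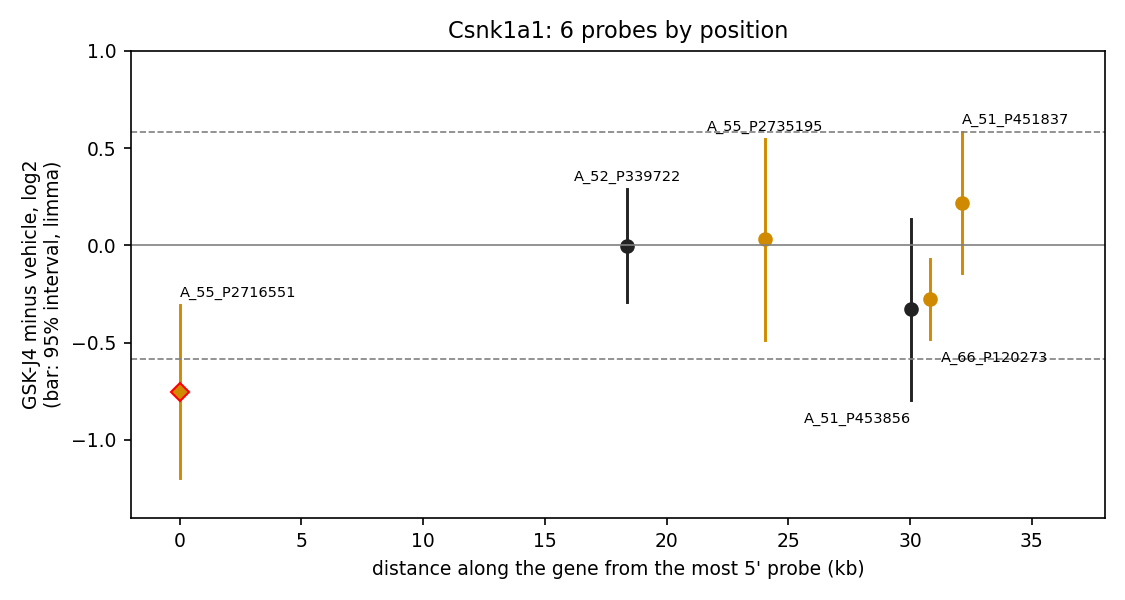
Log2 difference (GSK-J4 minus vehicle) of the 6 Csnk1a1 probes against their distance in kb from the most 5′ probe, with 95% intervals from limma; black marks a curated RefSeq mRNA, orange another record, the red-edged diamond an adjusted p of at most 0.05, and dashed lines 1.5-fold. The first probe lies at -0.75 and the others between -0.33 and 0.22, with 4 of those 5 intervals crossing 0.

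Csnk1d and Csnk1e encode CK1 delta and epsilon, the principal kinases of the PER proteins. Csnk1d A_51_P359813, on the curated mRNA, read 14.30, 14.29 and 14.32 on the vehicle arrays and 14.20, 14.24 and 14.19 on the GSK-J4 arrays. The groups did not overlap, but the step between them was -0.09 (95% interval -0.25 to 0.06, limma adjusted p = 0.33), and it became 0.15 with G and C content removed and 0.22 with scaling to the 75th percentile. The exon junction probe A_66_P108452, printed above, gave 0.08 (95% interval -0.20 to 0.36) and A_52_P477369 gave -0.09 (95% interval -0.43 to 0.26), each with overlapping groups. The last Csnk1d probe, A_55_P2613068, on an Ensembl transcript, was not well above background on any of the 6 arrays and was not tested.

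Csnk1e had groups that did not overlap at 1 of its 3 probes, and 0 calls. A_55_P2501349, at chr15:79252911-79252970 on the minus strand, read 9.82, 9.70 and 9.82 with vehicle and 9.96, 10.03 and 10.15 with GSK-J4. All 3 GSK-J4 arrays lay above all vehicle arrays, by 0.27 in the mean (95% interval 0.06 to 0.47, limma adjusted p = 0.078). A_55_P2122555 gave 0.19 (95% interval -0.09 to 0.47) and A_55_P2122546 gave 0.04 (95% interval -0.29 to 0.37), with overlapping groups at both. On the same arrays, the step of Csnk1e A_55_P2122546 over that of Csnk1d A_51_P359813 was 0.13 (exact permutation p = 0.6, or 0.8 after adjustment over 4 such comparisons).

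**Figure D4:**
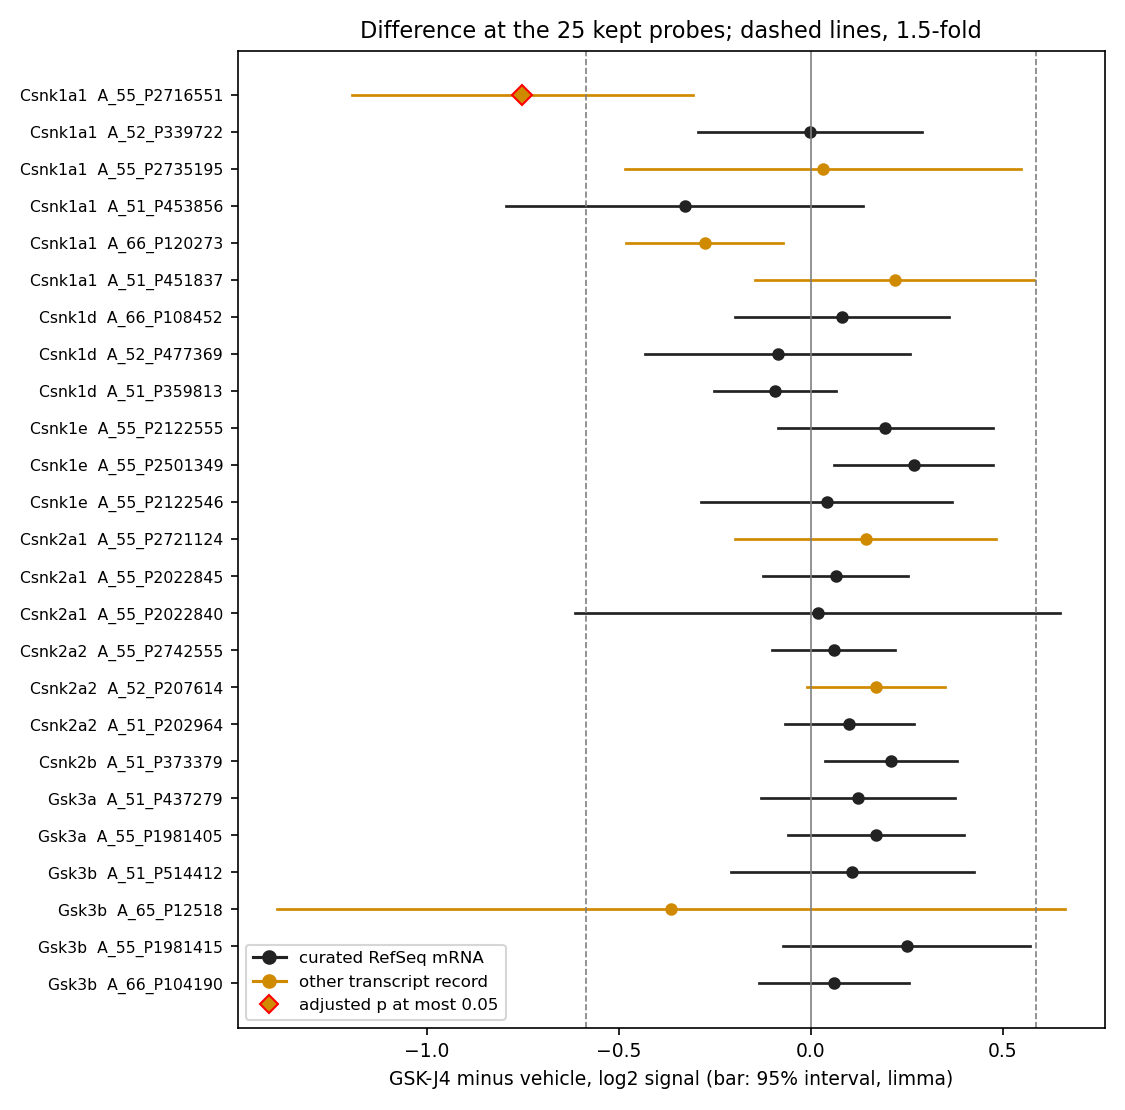
Log2 difference (GSK-J4 minus vehicle, horizontal axis) of the 25 kept kinase probes with 95% intervals from limma; black marks a curated RefSeq mRNA, orange another record, the red-edged diamond an adjusted p of at most 0.05, and dashed lines 1.5-fold. The diamond, Csnk1a1 A_55_P2716551, lies at -0.75, and 21 of the 25 intervals stay between the dashed lines.

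The 7 probes of the CK2 genes gave 0 calls, and the 6 that were above background in both groups differed by 0.02 to 0.21. Csnk2b encodes the regulatory beta subunit, which assembles the tetramer, and has 1 probe, A_51_P373379, at chr17:35253177-35253236 on the minus strand. It read 13.78, 13.83 and 13.80 on the vehicle arrays and 14.08, 14.01 and 13.96 on the GSK-J4 arrays. All 3 GSK-J4 arrays were above all vehicle arrays, with a difference of 0.21 (95% interval 0.04 to 0.38, limma adjusted p = 0.089). This probe was called higher in 3 of 17 alternative fits, at 0.34 with G and C content removed (limma adjusted p = 0.039), at 0.21 with a trended variance (0.038) and at 0.51 with scaling to the 75th percentile (0.014).

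Csnk2a2, the gene of the alpha prime subunit, differed by 0.06 to 0.17 at 3 probes, and the groups did not overlap at any of them. A_51_P202964 read 11.26, 11.29 and 11.19 with vehicle and 11.33, 11.38 and 11.33 with GSK-J4, a difference of 0.10 (95% interval -0.07 to 0.27). The exon junction probe A_55_P2742555, printed above, read 10.45, 10.50 and 10.52 with vehicle and 10.55, 10.56 and 10.53 with GSK-J4, so that the nearest arrays of the groups were 10.52 and 10.53. A_52_P207614, on a predicted model, was the furthest apart of the 3, at 0.17 (95% interval -0.01 to 0.35, limma adjusted p = 0.15).

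Csnk2a1, the gene of the alpha subunit, read 11.77, 11.80 and 11.88 with vehicle and 11.83, 11.84 and 11.97 with GSK-J4 at A_55_P2022845, a difference of 0.06 (95% interval -0.12 to 0.25). At A_55_P2022840 the vehicle arrays lay between 11.74 and 11.84 and the GSK-J4 arrays at 11.23, 12.06 and 12.18. GSK-J4 array 1 was below the vehicle arrays and the other two above them, so that the difference of 0.02 carried an interval of -0.61 to 0.65. The third probe, A_55_P2721124, on an Ensembl transcript, was well above background on 3 vehicle arrays and on 0 GSK-J4 arrays, at 4.26 to 4.73 and 4.61 to 4.76, and no fold is given for it. Within arrays, Csnk2b A_51_P373379 against Csnk2a1 A_55_P2022845 differed by 0.14 between the groups (exact permutation p = 0.3, adjusted 0.8), and Csnk2a2 A_51_P202964 against Csnk2a1 A_55_P2022845 by 0.04 (exact permutation p = 0.5, adjusted 0.8).

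The GSK3 genes were likewise uncalled. Gsk3a, the gene of GSK3 alpha, read 13.88, 14.15 and 14.08 with vehicle and 14.23, 14.17 and 14.23 with GSK-J4 at A_55_P1981405. The groups did not overlap, with vehicle array 1 well below the rest, and the difference was 0.17 (95% interval -0.06 to 0.40, limma adjusted p = 0.24). Without vehicle array 1 it was 0.09 (limma adjusted p = 0.475), and with scaling to the 75th percentile it was 0.48 and called (limma adjusted p = 0.032). A_51_P437279, also on a curated mRNA, gave 0.12 (95% interval -0.13 to 0.38), and 0.06 without vehicle array 1.

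Gsk3b encodes GSK3 beta, the form studied most in the clock. A_55_P1981415 read 13.12, 12.87 and 12.94 with vehicle and 13.38, 12.99 and 13.30 with GSK-J4, and GSK-J4 array 2 fell within the vehicle range. Its difference was 0.25 (95% interval -0.07 to 0.57, limma adjusted p = 0.22), and it leads the 3 curated Gsk3b probes in size. The exon junction probe A_51_P514412, printed above, gave 0.11 (95% interval -0.21 to 0.43), or 0.19 without vehicle array 1, and A_66_P104190 gave 0.06 (95% interval -0.13 to 0.26). A_65_P12518, on an Ensembl transcript, was well above background on 3 vehicle and 2 GSK-J4 arrays, and at -0.36 (95% interval -1.39 to 0.66) it was the least precise of the kinase probes. With 1 array left out this value ran from -0.09 without vehicle array 2 to -0.76 without vehicle array 1. Within arrays, Gsk3b A_55_P1981415 against Gsk3a A_55_P1981405 differed by 0.08 between the groups (exact permutation p = 0.8, adjusted 0.8).

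The probes also differed in base composition. The 25 kinase probes held 31.7% to 55.0% G and C, with a median of 40.0% beside 43.3% over all kept probes. The 12 kinase probes under 40% had a median difference of 0.02, with 5 below 0, and the 13 at or above it a median of 0.14, with 2 below 0. Over all kept probes the medians on the same sides of 40% were -0.13 and 0.10. The part of base composition in these differences was not tested beyond the corrected values given.

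With 1 probe a gene, the brightest over the 6 arrays, 0 of the 8 kinase genes were called higher and 0 lower, where 8.99% of 22117 genes were called higher and 7.79% lower. The lowest limma adjusted p was 0.077, for Csnk2b, the 1 gene of the 8 with an unadjusted p of at most 0.05. The 8 differences ran from -0.09 for Csnk1d to 0.25 for Gsk3b, with a median of 0.13 beside 0.04 over all genes. With the mean of all kept probes of a gene in place of the brightest, Gsk3b stood at 0.014 and Csnk1a1 at -0.18, and 0 of the 8 were called. Scaling to the 75th percentile called 3 of the 8 higher, and it also moved the share of higher calls among all called genes from 53.6% to 67.6%.

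The other genes of the pathway take in kinases, phosphatases and F-box proteins of the clock, the clock protein substrates and the beta-catenin complex. They were compared with 1 probe each, and all 34 had a kept probe. Of these, 1 was called higher and 4 lower, or 2.94% and 11.8%, beside 8.99% and 7.79% of all genes, with a median difference of -0.07. The count fell to 0 in each fit without 1 of the vehicle arrays, and it was 2 higher and 1 lower with G and C content removed and 6 higher and 4 lower with scaling to the 75th percentile. Over all 74 kept probes of these genes, 2 were called higher and 11 lower, beside 8.39% and 8.42% of all kept probes. Among genes whose brightest probe was not called, 5 had another probe that was. The gamma isoforms of CK1, Csnk1g1, Csnk1g2 and Csnk1g3, gave 0 calls of 3, with differences of -0.18 to 0.33. Other kinases of clock proteins gave 0 of 7, at -0.23 to 0.27, although dimmer probes of Dyrk1a (-0.66, limma adjusted p = 0.022) and Cdk5 (0.32, limma adjusted p = 0.031) were called, the first against a brightest Dyrk1a probe at 0.27. The phosphatases that remove the marks, catalytic subunits of PP1, PP2A and PP5, gave 0 of 6, at -0.19 to 0.18.

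The calls were among the substrates and in the beta-catenin complex. Of 9 clock protein substrates, 1 was called higher and 2 lower. A dimmer probe of Clock was also called lower (-0.81, limma adjusted p = 0.018), where its others gave 0.02 and 0.03. The paper instead reports Clock mRNA as raised by GSK-J4 in DIO mice, from its array data and from real-time PCR. Per2, a chief target of CK1, read 11.87, 11.79 and 11.82 with vehicle and 11.48, 11.42 and 11.59 with GSK-J4, a fall of 0.33 on the log2 scale (limma adjusted p = 0.037), and its second probe gave 0.11 (95% interval -0.24 to 0.46). The called Per2 probe has 35% G and C, a content at which 15.3% of kept probes were called lower and 1.69% higher. Per3 fell at 3 of 3 probes, by 0.37 at the brightest, from 9.24, 9.22 and 9.39 to 8.83, 9.01 and 8.90 (limma adjusted p = 0.039). Cry1, the repressor whose marking by AMPK and other kinases sets its life, read 5.86, 5.94 and 5.75 with vehicle and 6.51, 6.38 and 6.49 with GSK-J4. These groups of Cry1 did not overlap, with a rise of 0.61 (limma adjusted p = 0.015), whereas the second Cry1 probe gave -0.46 (95% interval -1.42 to 0.50). Both Cry1 probes were dim, beside a median of 5.74 on each array, and the second read 4.02 to 4.88 with vehicle. The paper reports the opposite direction, Cry1 mRNA lowered by GSK-J4 in the hypothalamus of DIO mice, from its array data and from real-time PCR.

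Of 5 F-box proteins that read such marks, 0 were called at the brightest probe, whereas 2 dimmer probes of Fbxw11 (-0.38 and -1.04) were called lower and another gave 0.32, uncalled. Btrc, the gene of beta-TrCP, read 12.19, 12.29 and 12.31 with vehicle and 12.20, 12.16 and 12.07 with GSK-J4, a difference of -0.11 (limma adjusted p = 0.30), and its second probe gave 0.10. Of 4 genes of the complex in which CK1 alpha and GSK3 mark beta-catenin, 2 were called lower. Ctnnb1, the gene of beta-catenin itself, read 13.19, 13.21 and 13.15 with vehicle and 12.60, 12.72 and 12.78 with GSK-J4, a fall of 0.48 (limma adjusted p = 0.019), and its other probes gave -0.45 and -0.09, both uncalled. The called Ctnnb1 probe has 35% G and C, as does that of Per2. Axin2, a scaffold of the complex and a known target gene of beta-catenin, read 6.38, 6.51 and 6.38 with vehicle and 5.53, 4.40 and 4.85 with GSK-J4, a fall of 1.49 (limma adjusted p = 0.027) at 1 probe with 25% G and C that was well above background on 2 of 3 GSK-J4 arrays.

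**Figure D5:**
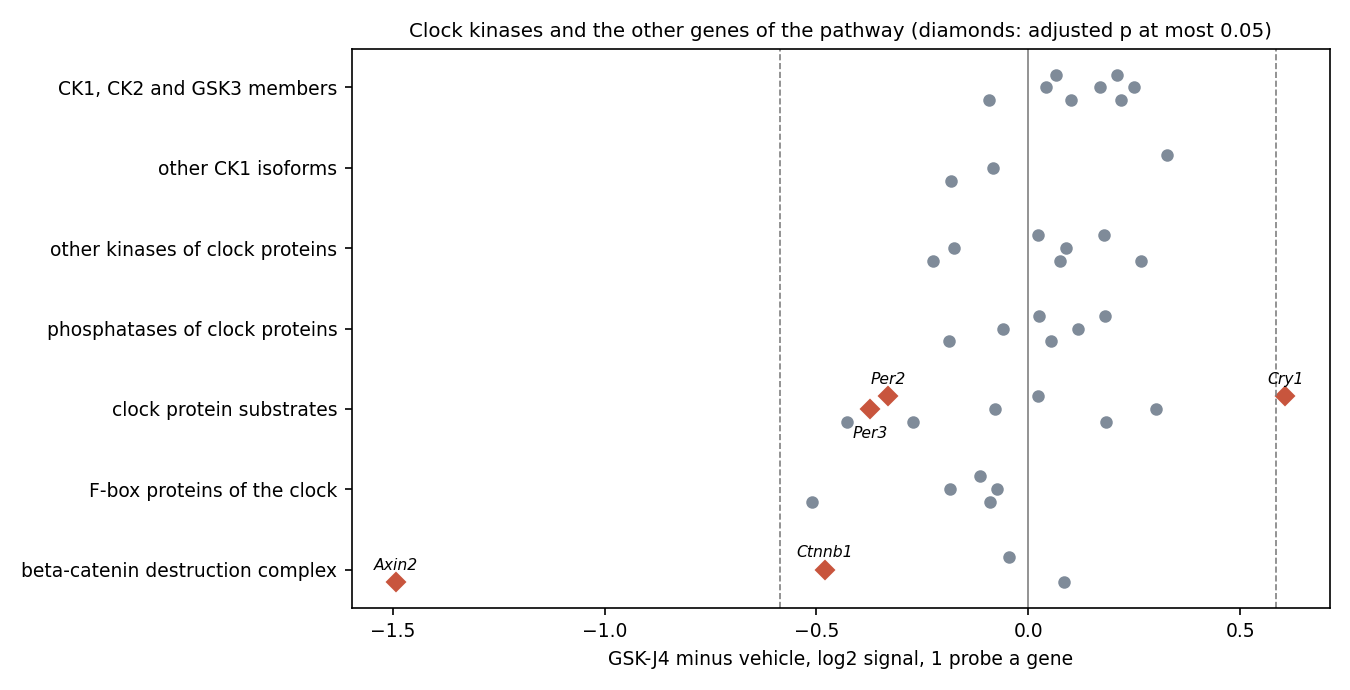
Log2 difference (GSK-J4 minus vehicle) of the 8 kinase genes and the 34 other genes of the pathway, 1 probe a gene, with 1 row for each group of genes; diamonds mark a limma adjusted p of at most 0.05 and dashed lines 1.5-fold, and the vertical spread within a row only separates points. The 8 kinase genes lie between -0.09 and 0.25 with no diamond, and the 5 diamonds are Cry1 to the right and Per2, Per3, Ctnnb1 and Axin2 to the left.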

How the data were processed

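Hypothalamic RNA of 6 DIO mice, 3 given GSK-J4 and 3 vehicle, was measured on 1-colour Agilent arrays. The authors made spot intensities with Feature Extraction (10.7.1.1, per the file headers), with the background subtracted. A second deposited file holds log2 values for 56745 probes and controls, made by quantile normalization in GeneSpring according to the methods. Sorted, the columns of this file differ by at most 0.00424, and the correlation with the spot intensities of the matching array was at least 0.999. The deposited log2 values were used for all main results, and the spot files gave probe names, detection flags, sequences, coordinates on mm9 and the alternatives.

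A probe entered the test if all 3 arrays of either group were well above background, which left 34444 of 56605. Groups were compared with lmFit and eBayes of limma 3.58.1 in R 4.3.3, two-sided and with no covariate, with Benjamini-Hochberg adjustment over all kept probes or, with the brightest probe of each gene, over 22117 genes. Exact permutation tests ran over the 20 orders of 3 arrays against 3. G and C content was removed with lowess within each array (span 30%). The test was checked on simulated data. For scanner arrays the number of arrays limits the precision, with replicate SDs of the kinase probes at a median of 0.083 (vehicle) and 0.109 (GSK-J4). No array was left out and 0 columns of the table were unassigned.

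All probes of the 8 kinases are given. Of the other pathway genes, those past an adjusted p of 0.05 are named, with Per2, Cry1 and Btrc in any case. The kinases, the lists and the tests were chosen with earlier results of these data known. ChIP-Seq, RT-PCR and animal measurements were not analysed here.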

Additional observations from a re-analysis of the deposited data

How the results depend on the processing

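Over 17 alternatives, the Csnk1a1 probe A_55_P2716551 stayed below 0, between -0.88 and -0.55, with 8 calls. Kinase probes called, 1 in all, were 2 with array weights, 3 with a trended variance and 4 with scaling to the 75th percentile (3 higher, 1 lower). They were 0 in t-tests with and without equal variances and without the filter on dim probes, and 0 to 1 when each array was left out. With G and C content removed 1 was called, but it was Csnk2b, higher. At the thresholds of the methods the count of 1 became 0 with G and C content removed and in the t-test without equal variances, and 0 to 1 with arrays left out, where it was 0 without GSK-J4 array 1. Kinase genes called, 0 in all, were 1 with G and C content removed, with a trended variance and in the t-test with equal variances, 3 with scaling to the 75th percentile, and 0 in each fit with 1 array left out. Of the other pathway genes, 5 in all, 3 were called with G and C content removed (2 higher), 2 without the filter (1 higher), 8 with normexp (2 higher), 10 with the 75th percentile (6 higher), 0 in the t-test without equal variances and 0 to 4 with arrays left out.

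With the replicate number as a block, 0 kinase probes, 0 kinase genes and 0 other pathway genes were called, and 0 probes of the whole array. The correlations used to look for a pairing were 0.01, 0.03 and 0.08 for arrays with the same number. They are not correlations of the signals themselves, which were 0.978 to 0.995 within a group. For 2 of the 3 vehicle arrays the highest value was with their own number. The highest of all, 0.095, joined vehicle array 2 to GSK-J4 array 1. These values do not settle a pairing, no label names one, and the numbers were not taken to pair the mice.

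A difference changed sign 26 times at 10 probes and in the mean of a gene, none of them called in any fit. With G and C content removed these were Csnk1a1 A_52_P339722 (0.13), Csnk1d A_51_P359813 (0.15) and Csnk1e A_55_P2122555 (-0.023). With scaling to the 75th percentile they were Csnk1a1 A_52_P339722 (0.11) and A_55_P2735195 (-0.10), and Csnk1d A_51_P359813 (0.22) and A_66_P108452 (-0.053). With normexp they were Csnk1e A_55_P2122546 (-0.056) and Csnk2a1 A_55_P2721124 (-0.049, a fitted value of a probe below background with GSK-J4 and not to be read as a change), and with array weights Csnk1a1 A_52_P339722 (0.017) and Csnk1e A_55_P2122546 (-0.014). The mean of all kept Csnk1a1 probes was -0.18. With arrays left out one at a time, 7 probes crossed 0, with ranges of -0.11 to 0.081 for Csnk1a1 A_52_P339722, -0.11 to 0.25 for Csnk1a1 A_55_P2735195, -0.18 to 0.059 for Csnk1d A_52_P477369, -0.0094 to 0.16 for Csnk1d A_66_P108452, -0.050 to 0.14 for Csnk1e A_55_P2122546, -0.16 to 0.31 for Csnk2a1 A_55_P2022840 and -0.015 to 0.19 for Gsk3b A_51_P514412. The cause was not tested. With 3 mice a group and 1 slide for each treatment, precision was limited. Differences of these kinases under the half-width of their intervals, at a median of 0.28 on the log2 scale, could not pass even the unadjusted test. A call asks for more, because its p is adjusted over all kept probes. Csnk1a1 A_66_P120273 (-0.28), Csnk1e A_55_P2501349 (0.27) and Csnk2b A_51_P373379 (0.21) exceeded their half-widths and were not called.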
